A study of Mus musculus with 6 samples.

Results

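The genes described here are 49 mouse genes of DNA replication and S phase entry, chosen by function as the rows of the deposited table whose gene symbol was on the list, out of 16729 genes in the table. They were measured by RNA-seq in tumors of the mG7080 line, a gliomasphere culture from a mouse glioma model, grown in the brains of C57BL/6 mice. The host genotype was Esm1 wild type (WT) or ESM1-KO, with 3 tumor libraries per group, and no treatment was labelled for either group. Esm1 encodes Endocan, a proteoglycan secreted by vascular endothelial cells. The deletion was in the host animal and the injected tumor cells were not described as carrying it, so Esm1 reads from tumor cells are not excluded by design. The paper measured almost no Endocan in medium of human gliomasphere lines. In single cells of human tumors it found ESM1 in endothelial cells and not in other types. The source of Esm1 reads in the KO libraries was not tested here. Hosts were female, and the study's reporting summary gives an age of 8 to 12 weeks, while its methods give a younger range. Each library is named here by its label. P-values measure the spread between 3 tumors per group from 1 cell line, or between fewer where a library is left out.

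Cells copy their DNA once per cycle. In G1 the origin recognition complex, CDC6 and CDT1 load the MCM2 to MCM7 helicase onto origins, which is called licensing, and geminin blocks CDT1 afterwards. In S phase the kinases CDC7 with DBF4 and cyclin-dependent kinase with cyclin E turn the loaded helicase on with CDC45 and GINS, and polymerases, the PCNA clamp and its loader copy both strands. Most of these genes are transcribed in late G1 by E2F factors, and E2F7 and E2F8 repress the same targets later in the cycle, so their mRNA levels in a tissue are commonly read as a sign of cycling cells.

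Esm1 (chr13:113209659-113218098 in mm10) was counted first, as the deleted gene. Its reads numbered 25 in WT 1, 21 in WT 2 and 82 in WT 3, against 1, 24 and 4 in the libraries labelled KO 1, KO 2 and KO 3. Scaled to library size (CPM, counts scaled by trimmed mean of M values, TMM), Esm1 stood at 1.18, 1.11 and 4.07 CPM in WT and at 0.0568, 1.06 and 0.208 CPM in KO. The library labelled KO 2 was thus the highest of the KO libraries and only just below WT 2, while KO 1 and KO 3 were far below every WT library. These levels set KO 2 apart from the other KO libraries but do not show whether its label is wrong. Total counts were 17632070 to 22241832 per library, and 3 counts, the limit that a count of 0 allows, corresponded to 0.132 to 0.17 CPM. All 49 members passed the filter on low counts in both fits, and the smallest count of a member in any library was 6. Because of these Esm1 levels, each fold change is given over all 6 libraries and again over the 5 without the library labelled KO 2. The levels had been seen in an earlier look at these data, so that choice followed sight of the data. KO 2 was also the KO library nearest to WT over the members. Its median log2 level relative to the WT mean was -0.44, against -2.35 in KO 1 and -2.82 in KO 3. Leaving it out therefore favours calls among the members.

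The summed level of the 49 genes was 1964, 3450 and 3133 CPM in WT 1, WT 2 and WT 3 and 629, 2067 and 558 CPM in the libraries labelled KO 1, KO 2 and KO 3. KO 1 and KO 3 were the low libraries, and the library labelled KO 2 lay between WT 1 and WT 3. Gene by gene, KO 1 and KO 3 were both below the other 4 libraries for 48 of the 49 members, all but E2f1, where 37.9% of the 16166 genes tested had that order. All 3 KO libraries were below all 3 WT libraries for 14 members, against 14.8% of genes: Orc2, Cdc6, Cdt1, Mcm3, Mcm8, Mcm10, Dbf4, Pola1, Prim2, Pole, Rpa1, Cdc25a, E2f2 and Clspn. The library labelled KO 2 fell inside the range of the WT libraries for the other 35 members, against 55.1% of genes, and above it for 0. The WT libraries also differed among themselves, since WT 1 was the lowest WT library for 49 of 49 members, and the highest library was WT 2 for 41 members and WT 3 for 8. Between the low libraries, KO 3 was below KO 1 for 40 members, with a median difference of -0.35 on the log2 scale.

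**Figure D1:**
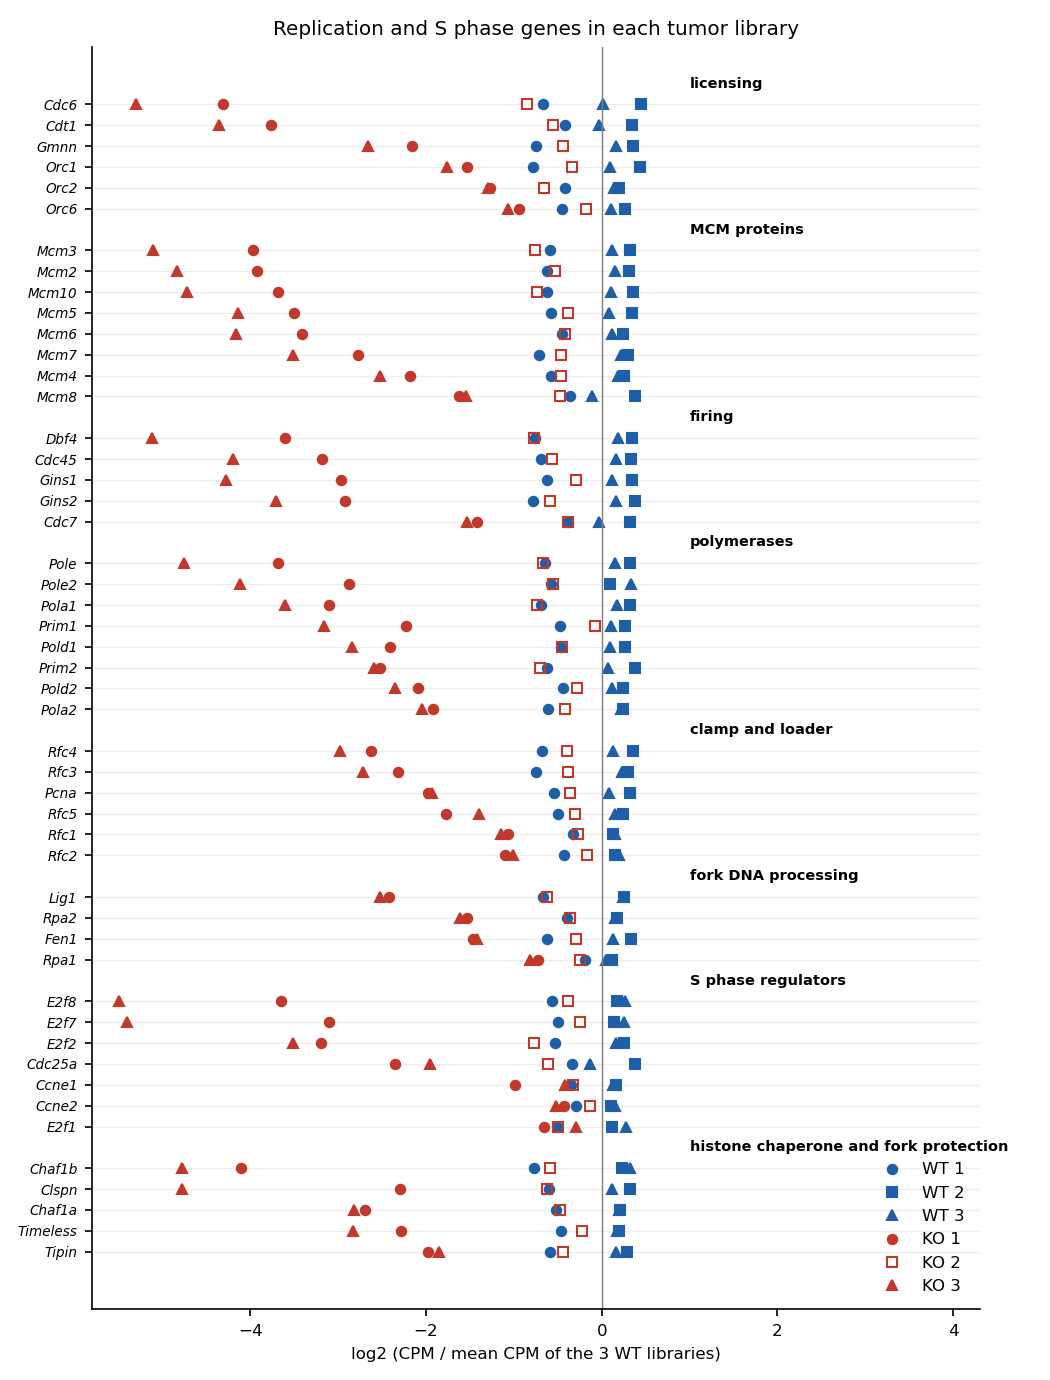
Each row is 1 of the 49 genes, grouped by role, and each point is 1 tumor library: the x axis gives the log2 ratio of its CPM to the mean CPM of the 3 WT libraries. The median over genes was -0.58, 0.28 and 0.15 for WT 1, WT 2 and WT 3 and -2.35, -0.44 and -2.82 for the libraries labelled KO 1, KO 2 and KO 3, so the open squares of KO 2 sit with the blue WT symbols while KO 1 and KO 3 lie to the left.

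The comparison of KO with WT hosts asks whether tumors that grew without host Endocan expressed the replication program at another level. Over all 6 libraries the log2 fold change (KO minus WT) was below 0 for 49 of 49 members, against 51.3% of genes tested, with a median of -1.50 for the members and -0.02 for all genes. None of these differences passed the test: 0 of 49 members were called by edgeR's quasi-likelihood test at a Benjamini-Hochberg adjusted p under 0.05, against 0% of all genes, and the members' adjusted p ran from 0.184 to 0.313. At an unadjusted p under 0.05, 12 members were lower, against 11.9% of genes. DESeq2 called 1 member, Orc2 (adjusted p = 0.0276), where it called 2.63% of genes lower, and edgeR's exact test and limma-voom called 0.

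Without the library labelled KO 2, 46 of 49 members fell and 0 rose by edgeR's quasi-likelihood test at an adjusted p under 0.05, against 28.3% of all genes called lower and 24.5% called higher. With a fold above 4 in addition, 32 members were called lower, against 7.48% of genes. The median log2 fold change was -2.53 for the members and -0.02 for all genes. Fold changes ran from -4.70 for Cdc6, a 26.4-fold lower mean level in KO 1 and KO 3 than in WT, to -0.44 for E2f1. The members not called were Ccne1, Ccne2 and E2f1. With KO 3 left out as well, KO 1 is the only KO library, so the KO group has no spread of its own. The members' median log2 fold change was then -2.33.

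**Figure D2:**
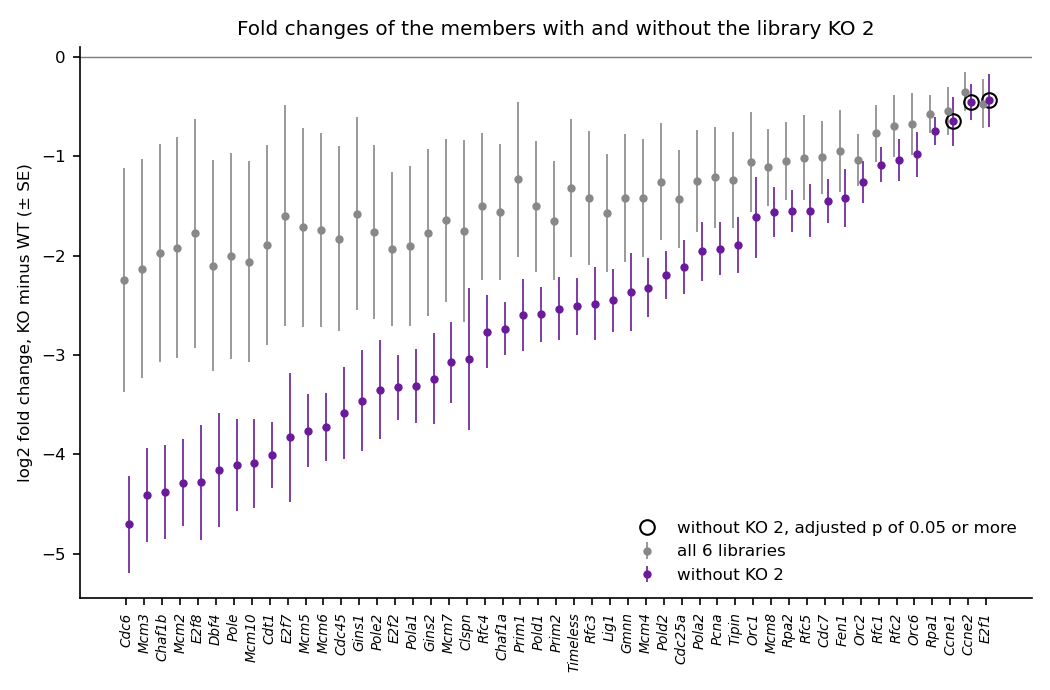
Points give the log2 fold change (KO minus WT, y axis) of each gene with its standard error as a bar, in grey over all 6 libraries and in purple without the library labelled KO 2. The grey points have adjusted p-values of 0.184 to 0.313, and of the 49 purple points only the 3 circled genes, Ccne1, Ccne2 and E2f1, had an adjusted p of 0.05 or more.

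Promoters are shown because most members are textbook E2F targets. Of the 49 members, 40 had an entry in the RefSeq promoter table (build GRCm38.p6, 48 promoters of 32851), each a window of 300 bases, 250 before the start and 50 from it on. An E2F-type motif, TTTNNCGC with each N being C or G, was found on either strand in 17 of the 48 member promoters (35.4%) and in 2.26% of all promoters. CCAAT was in 58.3% against 37.4%, the GC box GGGCGG in 68.8% against 35.7%, and TTTGAA, the core of the cell cycle homology region, in 18.8% against 17.9%. The 250 bases before the start are printed 5′ to 3′ for 3 genes with the E2F-type motif there, in capitals, and for Rpa1, which had the smallest fall among called members and no match. These are Mcm5 at chr8:75109259-75109508 (plus strand), Mcm6 at chr1:128359706-128359955 (minus strand), Pola1 at chrX:93632156-93632405 (minus strand) and Rpa1 at chr11:75348384-75348633 (minus strand). In Mcm5 2 matches overlap, and Mcm6 holds 3, a pair of which overlap.
Mcm5: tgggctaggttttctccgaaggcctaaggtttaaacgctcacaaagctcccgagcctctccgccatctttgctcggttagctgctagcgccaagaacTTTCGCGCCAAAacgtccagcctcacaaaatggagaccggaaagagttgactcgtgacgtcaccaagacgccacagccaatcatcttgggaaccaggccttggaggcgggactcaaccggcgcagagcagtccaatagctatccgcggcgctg
Mcm6: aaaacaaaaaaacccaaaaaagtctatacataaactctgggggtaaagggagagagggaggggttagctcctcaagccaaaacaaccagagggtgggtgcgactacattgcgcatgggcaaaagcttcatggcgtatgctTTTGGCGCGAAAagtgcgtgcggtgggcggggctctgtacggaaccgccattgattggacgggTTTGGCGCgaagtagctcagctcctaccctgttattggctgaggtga
Pola1: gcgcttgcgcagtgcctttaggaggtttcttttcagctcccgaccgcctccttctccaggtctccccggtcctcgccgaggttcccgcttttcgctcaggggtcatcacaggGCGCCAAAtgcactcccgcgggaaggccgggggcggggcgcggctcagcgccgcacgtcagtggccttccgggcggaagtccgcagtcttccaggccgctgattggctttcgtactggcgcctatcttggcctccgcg
Rpa1: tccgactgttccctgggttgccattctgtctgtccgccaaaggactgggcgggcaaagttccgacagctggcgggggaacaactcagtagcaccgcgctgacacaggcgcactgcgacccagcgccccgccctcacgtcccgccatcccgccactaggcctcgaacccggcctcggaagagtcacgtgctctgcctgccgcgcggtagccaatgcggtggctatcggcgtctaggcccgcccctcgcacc
Without the library labelled KO 2, the 17 genes with the E2F-type motif had a median log2 fold change of -3.31 (from -4.70 to -1.56), and the 23 with a promoter entry but no match had a median of -1.96 (from -4.38 to -0.44). Members without a match include Mcm2, Mcm10, Dbf4 and Chaf1b, so the ranges overlap widely. Some windows lie inside the annotated gene and do not cover its start. The Timeless window is chr10:128237816-128238115 (plus strand), and the gene starts at 128232065. The E2f1 window is chr2:154569377-154569676 (minus strand), and the gene reaches to 154569892. For these 2 genes, counted as without a match, the annotated start was not searched. The other motifs split the members too: the median was -3.45 for the 8 genes with TTTGAA and -2.55 for the 32 without, -2.73 for the 25 with CCAAT and -2.51 for the 15 without, and -2.75 for the 30 with GGGCGG and -2.498 for the 10 without. The median was lower with each of these motifs, by unequal amounts, and none of the splits was tested. Over all 6 libraries it was lower with each motif too, at -1.71 against -1.23 for the E2F-type motif. A match describes letters in a window and is no evidence of binding.

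Among the licensing genes, the loaders of the helicase were the most reduced and the origin recognition complex the least. All 6 fell without the library labelled KO 2, with a median log2 fold change of -1.99. Cdc6, the ATPase that brings the helicase to origins, had 20.5, 44.7 and 33.0 CPM in WT 1, WT 2 and WT 3 and 1.65, 18.1 and 0.831 CPM in the libraries labelled KO 1, KO 2 and KO 3. All 3 KO libraries were below the WT libraries, and the library labelled KO 2 was only just so. Its log2 fold change was -4.70 ± 0.49 (SE; adjusted p = 0.00798) without that library and -2.24 ± 1.13 (adjusted p = 0.21) with it. Cdt1, the other loading factor, had 31.2, 52.9 and 40.5 CPM in the WT libraries and 3.07, 28.3 and 2.03 CPM in the KO libraries in the same order. Again all 3 KO libraries were lower, and the change was -4.01 ± 0.33 (adjusted p = 0.00798) without the library labelled KO 2 and -1.89 ± 1.00 (adjusted p = 0.224) with it. Gmnn, which encodes geminin, had 13.1, 28.2 and 24.8 CPM in WT and 4.94, 16.2 and 3.48 CPM in KO, with the library labelled KO 2 inside the WT range. It changed by -2.36 ± 0.39 (adjusted p = 0.0101) without that library, and the difference was -1.42 ± 0.64 (adjusted p = 0.191) with it.

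The origin recognition complex takes part in loading the helicase onto origins. Orc1, its cycle-regulated subunit, had 4.71, 10.9 and 8.64 CPM in WT 1, WT 2 and WT 3 and 2.78, 6.39 and 2.39 CPM in the libraries labelled KO 1, KO 2 and KO 3. Orc2 had 75.4, 116 and 111 CPM in WT and 41.8, 64.0 and 41.1 CPM in KO. Orc6 had 30.2, 49.5 and 44.3 CPM in WT and 21.5, 36.5 and 19.7 CPM in KO. KO 1 and KO 3 were below every WT library for each of the 3 genes, and for Orc2 the library labelled KO 2 was too. Without the library labelled KO 2 the log2 fold changes were -1.62 ± 0.41 (adjusted p = 0.0226) for Orc1, -1.26 ± 0.21 (adjusted p = 0.01) for Orc2 and -0.98 ± 0.23 (adjusted p = 0.0187) for Orc6. With all 6 libraries they were -1.06 (adjusted p = 0.198), -1.04 (adjusted p = 0.184) and -0.67 (adjusted p = 0.193). Orc2 shares 29.8% of its exon bases with Nif3l1 on the opposite strand, and since the strand setting of the counting is not given in the sources used here, reads of the pair may be mixed.

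The MCM group holds Mcm2 to Mcm7, which encode the replicative helicase, and also Mcm8 and Mcm10, which lie outside that complex. The group had the lowest median log2 fold change of the 8 groups, -3.74 without the library labelled KO 2. All 8 were called lower, 7 of them with a fold above 4. Over all 6 libraries the lowest median was that of the firing group, at -1.77, against -1.73 for the MCM group. Mcm3 had 98.3, 186 and 161 CPM in WT 1, WT 2 and WT 3 and 9.48, 87.6 and 4.31 CPM in the libraries labelled KO 1, KO 2 and KO 3. All KO libraries were below the WT libraries, and the fold change was -4.41 ± 0.47 (adjusted p = 0.00798) without the library labelled KO 2 and -2.13 ± 1.10 (adjusted p = 0.216) with it. Mcm2 had 114, 217 and 195 CPM in WT and 11.6, 121 and 6.13 CPM in KO. Mcm5 had 87.1, 165 and 137 CPM in WT and 11.5, 99.6 and 7.37 CPM in KO. For both genes KO 1 and KO 3 were far below the lowest WT library, and the library labelled KO 2 was inside the WT range. Mcm6 had 111, 180 and 165 CPM in WT and 14.3, 114 and 8.46 CPM in KO. Mcm7 had 101, 205 and 193 CPM in WT and 24.4, 120 and 14.5 CPM in KO. Mcm4 had 51.6, 91.8 and 87.2 CPM in WT and 16.9, 55.8 and 13.3 CPM in KO. In each of these 3 genes the library labelled KO 2 was above WT 1. Without it the changes were -4.28 ± 0.44 for Mcm2, -3.76 ± 0.37 for Mcm5, -3.72 ± 0.34 for Mcm6, -3.07 ± 0.41 for Mcm7 and -2.32 ± 0.29 for Mcm4, with an adjusted p of 0.00798 for each. Over all 6 libraries the differences were -1.92 (adjusted p = 0.25), -1.71 (adjusted p = 0.252), -1.74 (adjusted p = 0.241), -1.65 (adjusted p = 0.208) and -1.42 (adjusted p = 0.184) in the same order.

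Mcm8, which belongs to a separate helicase used in homologous recombination, had 20.7, 34.5 and 24.6 CPM in WT 1, WT 2 and WT 3 and 8.63, 19.1 and 9.09 CPM in the libraries labelled KO 1, KO 2 and KO 3. It had the smallest change of the group, at -1.56 ± 0.25 without the library labelled KO 2 (adjusted p = 0.00954) and -1.11 ± 0.38 with it (adjusted p = 0.184), and all 3 KO libraries were below the WT libraries.

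The 6 subunits of the MCM2 to MCM7 ring stand in equal number in the protein complex, and their mRNA levels did not keep the same proportions. Per length, as deposited FPKM (fragments per kilobase, scaled for depth), Mcm7 was the highest subunit in all 6 libraries, at 43.8, 91.6 and 85.6 FPKM in WT and 9.30, 53.5 and 5.25 FPKM in KO. The lowest subunit was Mcm4 in the 3 WT libraries and the library labelled KO 2, at 14.9 to 27.4 FPKM, and Mcm3 in KO 1 and KO 3, at 3.01 and 1.29 FPKM. The Mcm4 to Mcm3 ratio was accordingly 0.422, 0.397 and 0.435 in WT 1, WT 2 and WT 3 and 1.43, 0.512 and 2.49 in the libraries labelled KO 1, KO 2 and KO 3. The ratio was thus above the WT range in all 3 KO libraries, by far the least in the library labelled KO 2. It was looked at after the values were known and was not tested. The highest subunit stood 2.94 to 3.34 times above the lowest within a WT library and 3.09, 3.23 and 4.06 times within the KO libraries.

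**Figure D3:**
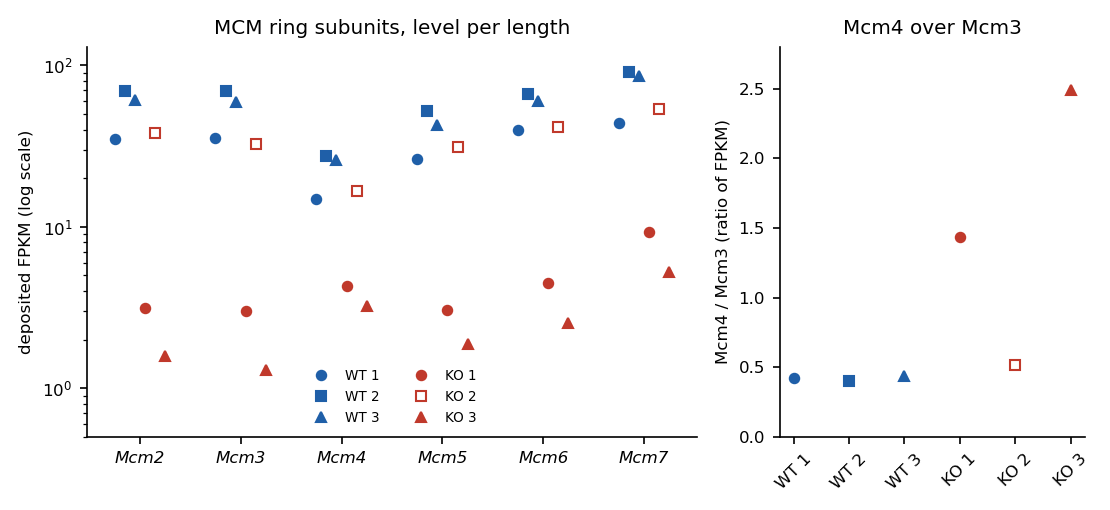
Left, the deposited FPKM (log axis) of the 6 ring subunits, with 1 symbol per tumor library; right, the ratio of Mcm4 to Mcm3 FPKM in each library (linear axis). Mcm3 changed places with Mcm4 as the lowest subunit in KO 1 and KO 3, where the ratio was 1.43 and 2.49 against 0.397 to 0.435 in WT.

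The firing group holds the genes that switch the loaded helicase on. All 5 fell without the library labelled KO 2, with a median log2 fold change of -3.46, but the paired kinase subunits differed in size. Dbf4, the activating subunit of the CDC7 kinase, had 39.4, 84.7 and 75.6 CPM in WT 1, WT 2 and WT 3 and 5.45, 39.0 and 1.92 CPM in the libraries labelled KO 1, KO 2 and KO 3. Cdc7, the catalytic subunit, had 45.6, 74.7 and 58.5 CPM in WT and 22.2, 45.8 and 20.6 CPM in KO. For Dbf4 KO 1 and KO 3 were far below the other libraries, while for Cdc7 they stood closer. The fold change was -4.16 ± 0.57 (adjusted p = 0.008) for Dbf4 and -1.45 ± 0.22 (adjusted p = 0.00882) for Cdc7 without the library labelled KO 2, and -2.10 ± 1.06 (adjusted p = 0.211) and -1.01 ± 0.37 (adjusted p = 0.184) with it. Cdc45, the helicase cofactor, had 16.0, 32.4 and 28.9 CPM in WT and 2.84, 17.4 and 1.40 CPM in KO. It fell by 3.58 on the log2 scale without the library labelled KO 2 (SE 0.46, adjusted p = 0.00798), and that library lay just above WT 1. Its difference with all 6 libraries was -1.83 ± 0.93 (adjusted p = 0.212). The GINS subunits Gins1 and Gins2 changed by -3.46 and -3.24 without that library, and Gins2 shares 67.3% of its exon bases with Gse1 on the opposite strand, which leaves its counts uncertain.

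The 8 polymerase and primase genes all fell without the library labelled KO 2, with a median log2 fold change of -2.59 and a range from -4.10 to -1.96. Pole, the catalytic subunit of the leading strand polymerase epsilon, had 53.5, 105 and 93.5 CPM in WT 1, WT 2 and WT 3 and 6.53, 52.9 and 3.12 CPM in the libraries labelled KO 1, KO 2 and KO 3. All 3 KO libraries were lower, although the library labelled KO 2 was nearly level with WT 1, and the change was -4.10 ± 0.46 (adjusted p = 0.00798) without it and -2.01 ± 1.04 (adjusted p = 0.218) with it. Prim1, the catalytic primase subunit that makes the RNA primers, had 29.1, 48.4 and 43.5 CPM in WT and 8.63, 38.2 and 4.52 CPM in KO. Here the library labelled KO 2 lay well inside the WT range, and the change was -2.60 ± 0.36 (adjusted p = 0.00808) without it and -1.23 ± 0.78 (adjusted p = 0.278) with it. Of the remaining 6 genes, again without it, Pola1 and Pole2 changed by -3.31 and -3.35, Pold1, Prim2 and Pold2 by -2.59, -2.53 and -2.20, and Pola2 by -1.96.

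The sliding clamp and its loader fell less, with a median log2 fold change of -1.74 without the library labelled KO 2. All 6 genes were called lower, 2 of them with a fold above 4. Pcna, the clamp that holds the polymerases on DNA and also serves DNA repair, had 88.7, 162 and 138 CPM in WT 1, WT 2 and WT 3 and 32.9, 101 and 34.0 CPM in the libraries labelled KO 1, KO 2 and KO 3. The library labelled KO 2 was between WT 1 and WT 3, and the fold change was -1.93 ± 0.27 (adjusted p = 0.008) without it and -1.21 ± 0.51 (adjusted p = 0.185) with it. Among the loader genes, Rfc4 had 16.6, 34.1 and 29.1 CPM in WT and 4.31, 20.3 and 3.38 CPM in KO. Rfc2 had 52.6, 78.3 and 81.2 CPM in WT and 32.9, 62.9 and 35.0 CPM in KO. Rfc1, the large subunit particular to this loader, had 93.9, 128 and 131 CPM in WT and 56.1, 97.8 and 53.3 CPM in KO. In all 3 genes the library labelled KO 2 was above WT 1 and KO 1 and KO 3 were below every WT library. The changes without the library labelled KO 2 were -2.76 ± 0.36 (adjusted p = 0.00798) for Rfc4, -1.04 ± 0.21 (adjusted p = 0.0143) for Rfc2 and -1.09 ± 0.18 (adjusted p = 0.01) for Rfc1. With all 6 libraries they were -1.51 (adjusted p = 0.205), -0.70 (adjusted p = 0.19) and -0.77 (adjusted p = 0.184). Rfc2, Rfc4 and Rfc5 share 15.1%, 12.7% and 10.7% of their exon bases with genes on the opposite strand.

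The 4 genes that coat, trim and join DNA at the fork had the smallest median of the 8 groups, -1.48 without the library labelled KO 2, and all 4 were called lower. Lig1, the ligase that seals Okazaki fragments, had 58.7, 111 and 110 CPM in WT 1, WT 2 and WT 3 and 17.4, 60.3 and 16.1 CPM in the libraries labelled KO 1, KO 2 and KO 3. Rpa1, the large subunit of the single-strand binding protein, had 78.1, 96.6 and 92.4 CPM in WT and 54.0, 74.9 and 50.5 CPM in KO. For Lig1 KO 1 and KO 3 were far below WT 1, while for Rpa1 all 3 KO libraries were lower by smaller steps. The change was -2.45 ± 0.31 (adjusted p = 0.00798) for Lig1 and -0.75 ± 0.14 (adjusted p = 0.0117) for Rpa1 without the library labelled KO 2, and -1.57 ± 0.59 and -0.57 ± 0.19 with it (adjusted p = 0.184 for both). Without it, Rpa2 and Fen1 changed by -1.55 and -1.42.

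The S phase regulators were the only group with members not called without the library labelled KO 2. Their log2 fold changes in that fit were all below 0, from -4.28 to -0.44. Of 7 genes, 4 fell without the library labelled KO 2, each with a fold above 4, and 3 did not pass the test. E2f8, an atypical repressor of the E2F family, had 11.1, 18.5 and 19.7 CPM in WT 1, WT 2 and WT 3 and 1.31, 12.6 and 0.363 CPM in the libraries labelled KO 1, KO 2 and KO 3. E2f7, its partner repressor, had 9.32, 14.6 and 15.7 CPM in WT and 1.53, 11.2 and 0.312 CPM in KO. E2f2, an activator, had 14.4, 24.8 and 23.2 CPM in WT and 2.27, 12.2 and 1.82 CPM in KO. KO 1 and KO 3 were below every WT library in these 3 genes, and the library labelled KO 2 was below only for E2f2. Without that library the changes were -4.28 ± 0.58 (adjusted p = 0.00798) for E2f8, -3.83 ± 0.65 (adjusted p = 0.0104) for E2f7 and -3.32 ± 0.33 (adjusted p = 0.00798) for E2f2. Over all 6 libraries the differences were -1.78 ± 1.15 (adjusted p = 0.289) for E2f8, -1.60 ± 1.11 (adjusted p = 0.313) for E2f7 and -1.93 ± 0.78 (adjusted p = 0.184) for E2f2.

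E2f1, the founding activator of the family, had 19.3, 29.9 and 33.5 CPM in WT 1, WT 2 and WT 3 and 17.5, 19.6 and 22.5 CPM in the libraries labelled KO 1, KO 2 and KO 3. The groups overlapped, with KO 2 and KO 3 above WT 1, and the log2 difference was -0.44 ± 0.27 (adjusted p = 0.203) without the library labelled KO 2 and -0.47 ± 0.24 (adjusted p = 0.218) with it. Ccne1, which encodes cyclin E1, the partner of CDK2 at S phase entry, had 22.6, 32.3 and 31.6 CPM in WT and 14.5, 23.0 and 21.6 CPM in KO. Ccne2, which encodes cyclin E2, had 18.6, 24.6 and 25.4 CPM in WT and 16.9, 20.8 and 16.0 CPM in KO. For both cyclins KO 1 and KO 3 were below every WT library, and the library labelled KO 2 was inside the WT range. The differences were -0.65 ± 0.25 (adjusted p = 0.0669) for Ccne1 and -0.45 ± 0.18 (adjusted p = 0.0794) for Ccne2 without the library labelled KO 2, and -0.55 ± 0.25 (adjusted p = 0.19) and -0.35 ± 0.20 (adjusted p = 0.241) with it. That these 3 genes missed the threshold does not show that they were level, and Ccne2 shares 17.4% of its exon bases with Ints8 on the opposite strand.

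The 5 genes of histone delivery and fork protection all fell without the library labelled KO 2, with a median log2 fold change of -2.73. Chaf1b, a subunit of the chromatin assembly factor that places new histones behind the fork, had 12.5, 25.1 and 26.7 CPM in WT 1, WT 2 and WT 3 and 1.25, 14.2 and 0.779 CPM in the libraries labelled KO 1, KO 2 and KO 3. Tipin, which with Timeless steadies stalled forks, had 40.7, 74.7 and 68.8 CPM in WT and 15.6, 45.2 and 17.0 CPM in KO. In both genes the library labelled KO 2 lay just above WT 1 and KO 1 and KO 3 were the lowest. The change was -4.38 ± 0.47 (adjusted p = 0.00798) for Chaf1b and -1.89 ± 0.28 (adjusted p = 0.00862) for Tipin without the library labelled KO 2, and -1.98 ± 1.10 (adjusted p = 0.238) and -1.24 ± 0.48 (adjusted p = 0.184) with it. Without it, Chaf1a, Clspn and Timeless changed by -2.73, -3.04 and -2.51, and Chaf1a shares 52.5% of its exon bases with Ubxn6 on the opposite strand.

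Because members fell by different amounts, 5 ratios between members were compared within each library, where the scaling of the library cancels. On the log2 scale the ratio of Cdt1 to its inhibitor Gmnn was 1.25, 0.91 and 0.71 in WT 1, WT 2 and WT 3 and -0.69, 0.80 and -0.78 in the libraries labelled KO 1, KO 2 and KO 3. The ratio was above 0 in the 3 WT libraries and the library labelled KO 2, and below 0 in KO 1 and KO 3. The ratio of the repressors E2f7 plus E2f8 to the activators E2f1 plus E2f2 was -0.73, -0.73 and -0.68 in WT and -2.80, -0.42 and -5.17 in KO. It was nearly the same in the 3 WT libraries, far lower in KO 1 and KO 3, and slightly higher in the library labelled KO 2. The value of KO 3 rests on 6 reads of E2f7 and 7 of E2f8, and that of KO 1 on 27 and 23, so both are imprecise. The differences in means were -1.18 for Cdt1 over Gmnn (two-sided exact permutation p = 0.2, n = 3 per group) and -2.09 for the E2F ratio (exact permutation p = 0.4), and neither passed. The E2F difference depended on single libraries, at -0.90 without KO 3 and -3.28 without the library labelled KO 2. For 3 libraries against 3 the smallest exact p is 0.1, and adjusted over the 5 ratios these became 0.5 for both.

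The small loader subunits Rfc2 to Rfc5 over Rfc1 differed by -0.30 between KO and WT (exact permutation p = 0.2, n = 3 per group), with KO 1 and KO 3 below the WT libraries and the library labelled KO 2 among them. Ccne2 over Ccne1 differed by 0.21 (exact permutation p = 0.4) and Orc1 over Orc2 by -0.08 (exact permutation p = 0.8). In both of these the groups overlapped with or without the library labelled KO 2.

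**Figure D4:**
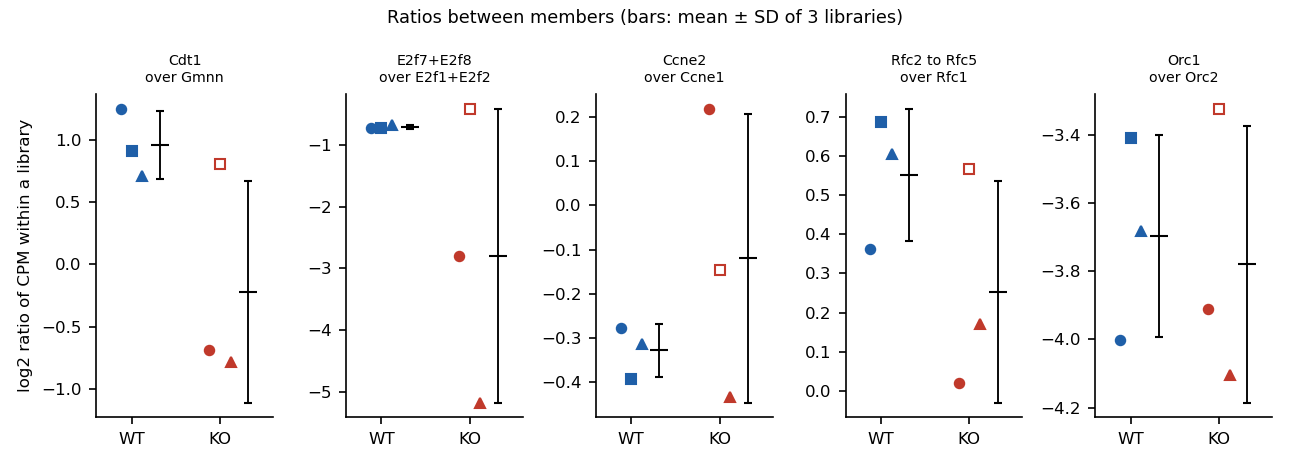
Each panel gives 1 ratio between members, as the log2 ratio of their CPM within a library (y axis, own scale per panel), for the WT (blue) and KO (red) libraries, with the library labelled KO 2 as an open square and bars for the mean ± SD of 3 libraries. In the Cdt1 over Gmnn and E2F panels KO 1 and KO 3 lie below the WT libraries, while the open square is inside the WT range in the former and above it, at -0.42, in the latter.

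The order of the genes by level also differed. By mean FPKM, Pcna was first of the 49 in the WT libraries (109) and in KO 1 and KO 3 (23.6). Behind it, Mcm7, Mcm2 and Mcm3 held places 2, 4 and 5 in WT and places 10, 29 and 31 in KO 1 and KO 3. Rpa1 moved from place 12 to 3, Ccne1 from 32 to 8 and E2f1 from 39 to 11. E2f7 was last in both, at 2.56 and 0.153 FPKM. These are orders of levels per length, given as a description.

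Genes of the same pathway outside the 49 were counted from 2 further lists. Of 29 other genes of the replication machinery, 22 fell and 1 rose without the library labelled KO 2. In that fit 28.3% of all genes were called lower and 24.5% higher. Over all 6 libraries 0 of the 29 were called, against 0% of all genes. The median log2 fold changes were -1.46 and -1.04 in the same order. Dscc1, a subunit of the alternative clamp loader for sister chromatid cohesion, had 4.38, 11.4 and 9.03 CPM in WT 1, WT 2 and WT 3 and 0.227, 5.77 and 0.26 CPM in the libraries labelled KO 1, KO 2 and KO 3, a change of -5.02 ± 0.60 (adjusted p = 0.00798) without the library labelled KO 2 and a difference of -1.96 ± 1.23 (adjusted p = 0.274) with it. The gene that rose was Orc3, an origin recognition subunit, with 75.0, 62.4 and 63.5 CPM in WT and 86.5, 67.4 and 92.3 CPM in KO. Its change was 0.43 ± 0.14 (adjusted p = 0.047) without the library labelled KO 2 and 0.29 ± 0.17 (adjusted p = 0.243) with it, opposite in sign to Orc1, Orc2 and Orc6.

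Of 22 genes of G1 to S control, 16 fell and 0 rose without the library labelled KO 2, with a median of -1.31. The shares of all genes in that fit were 28.3% called lower and 24.5% called higher. Ccna2, which encodes the S phase cyclin A2, had 99.5, 178 and 170 CPM in WT 1, WT 2 and WT 3 and 21.1, 110 and 16.1 CPM in the libraries labelled KO 1, KO 2 and KO 3. It changed by -2.98 ± 0.31 (adjusted p = 0.00798) without the library labelled KO 2 and by -1.60 ± 0.78 (adjusted p = 0.202) with it. Cdkn1c, a cyclin-dependent kinase inhibitor, had 11.7, 8.72 and 15.7 CPM in WT and 8.40, 23.8 and 12.9 CPM in KO. Those groups overlapped, and its difference was -0.16 ± 0.33 (adjusted p = 0.7) without the library labelled KO 2 and 0.32 ± 0.43 (adjusted p = 0.581) with it, so its sign turned.

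Markers of other cells also differed between libraries, in some lists in the direction opposite to the members. The 15 neuron markers summed to 6555, 2236 and 3923 CPM in WT 1, WT 2 and WT 3 and to 14580, 5561 and 17727 CPM in the libraries labelled KO 1, KO 2 and KO 3, and 13 of them rose without the library labelled KO 2. From the highest to the lowest sum of the 49 members the libraries ran WT 2, WT 3, KO 2, WT 1, KO 1 and KO 3, and the neuron sums ran in exactly the reverse order over these 6 libraries. The 9 glioma and progenitor markers summed to 1743, 2699 and 2316 CPM in WT and to 592, 1907 and 399 CPM in KO. Without the library labelled KO 2, 7 of them fell, among them Olig2, Nes and Pdgfra. The other 2, Sox10 and Prom1, had log2 fold changes above 0 and were not called higher. Calls in these lists are without the library labelled KO 2, where 28.3% of all genes were called lower and 24.5% higher. The 10 oligodendrocyte markers ranged from 1419 to 3524 CPM in WT and from 3352 to 7846 CPM in KO (2 called higher). The 9 astrocyte markers ranged from 3310 to 4283 CPM and from 4675 to 6801 CPM (5 higher, 1 lower). The 12 microglia and macrophage markers ranged from 1106 to 1174 CPM in WT and from 675 to 1501 CPM in KO (1 higher, 7 lower). The 9 endothelial markers summed to 182 to 227 CPM in WT and 171 to 237 CPM in KO (2 higher), and the 6 mural markers to 119 to 187 CPM and 110 to 153 CPM (1 higher, 1 lower). The 7 T cell markers ranged from 32.5 to 35.7 CPM and from 7.27 to 50.2 CPM (6 lower). Of the 5 red blood cell markers only Alas2 was in the table, at 2.33 to 12.1 CPM in WT and 3.13 to 8.91 CPM in KO (not called). No marker was at 0 in any library.

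Set against the glioma and progenitor list, which was done after the values were known, the summed members stood at 1.13, 1.28 and 1.35 times the list in WT 1, WT 2 and WT 3 and at 1.06, 1.08 and 1.40 times in the libraries labelled KO 1, KO 2 and KO 3. The groups overlapped in that ratio. The MCM2 to MCM7 genes alone stood at 0.323, 0.387 and 0.405 times the list in WT and at 0.149, 0.314 and 0.136 times in KO, with KO 1 and KO 3 below the rest, whereas the other 43 members stood at 0.804 to 0.948 times in WT and 0.913, 0.770 and 1.26 times in KO. In bulk tissue fewer tumor cells in a sample and less RNA per cell cannot be told apart, and the part of cell makeup in the members' difference was not tested.

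**Figure D5:**
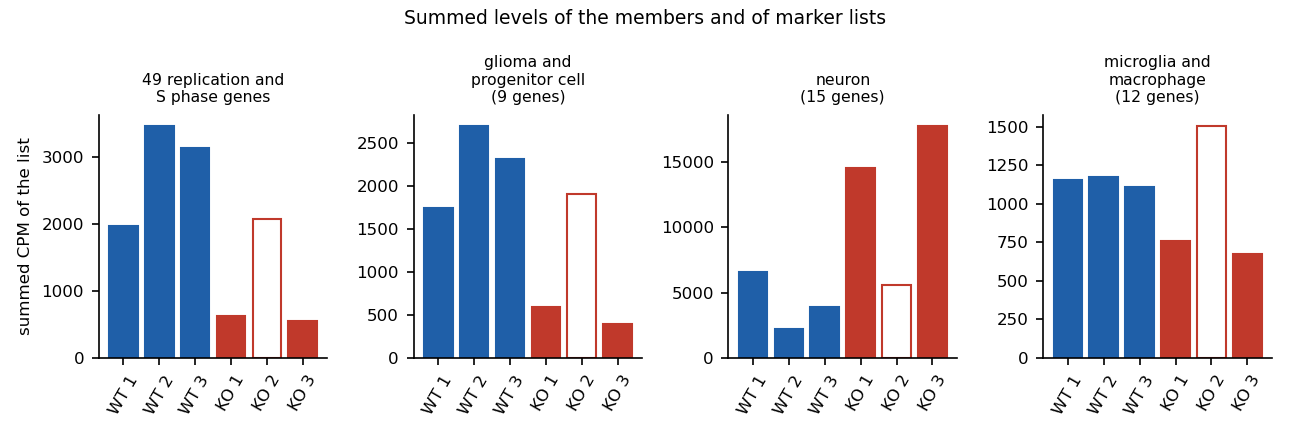
Bars give the summed CPM (y axes from 0, own scale per panel) of the 49 members and of 3 marker lists in each tumor library, with WT in blue, KO in red and the library labelled KO 2 as an open bar. The members and the glioma list are low in KO 1 and KO 3, where the neuron list is at 14580 and 17727 CPM against 2236 to 6555 CPM in WT.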

How the data were processed

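RNA-seq of 6 tumors (3 per host genotype) was analysed from 1 deposited table, with groups taken from the labels. The counts were made by the authors as whole reads per gene without normalization. Per the labels, libraries were made with NEBNext Ultra, with mm10, CASAVA 1.8.2 and edgeR named as build and tools; the study's methods instead name an Ovation kit, HTSeq, uniquely mapped reads and hg38, and its reporting summary STAR. The strand setting of the counting is not given in the sources used here. The authors also deposited FPKM, used here only to compare levels between genes. The authors' normalized values, fold changes, p-values and false discovery rates in the table were not used.

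Low genes were removed with filterByExpr at a minimum count of 10 and a minimum total of 15, which left 16166 genes (16279 without the library labelled KO 2). Library sizes were scaled by TMM, and genes were tested by quasi-likelihood in edgeR 4.0.16 under R 4.3.3. P-values were adjusted by the Benjamini-Hochberg method over every gene that entered the fit. Each standard error was derived from the log2 fold change and its F statistic. Scripts were tested on simulated data. CPM used TMM factors over all 6 libraries. Total counts were 17632070 to 22241832 per library, and PCR copies were not marked, so floors cover counting error only. Alternatives were other scalings and filters, DESeq2 1.42.0, edgeR's exact test, limma-voom (limma 3.58.1), a replicate block and each library left out. Ratios were compared by exact permutation with scipy 1.17.1.

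The members and lists were chosen with earlier results of these data known. Per-library values are given for Esm1, a fixed set of core genes (Mcm2 to Mcm7, Pcna, Cdc6, Cdt1, Gmnn, Orc1, Orc2, Cdc45, Ccne1, Ccne2, E2f1, E2f2, E2f7, E2f8 and Rfc1) and the members or pathway genes with the lowest and highest log2 fold change of each list over all 6 libraries.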

Additional observations from a re-analysis of the deposited data

How the results depend on the processing

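Over all 6 libraries the number of members called stayed at 0 under RLE, upper quartile and total-count scaling, both other filters on low counts, the exact test, limma-voom and a fold above 4, and was 1 with DESeq2. Leaving out 1 library at a time gave 0 to 46 calls and a median log2 fold change of -2.53 to -1.08, and the 46 calls came only without the library labelled KO 2. Without that and WT 3, which are the 4 libraries of the study's table and a choice made after seeing the data, 40 were called, against 13.9% of all genes lower and 2.87% higher, and the median was -2.51. Without the library labelled KO 2, the other scalings, filters and tools called 46 to 48 members. They called 25.6% to 36.9% of all genes lower and 15.5% to 28.2% higher. Leaving out WT 1, WT 2 or WT 3 as well called 49, 46 and 40 members. In that order 34.2%, 21.5% and 13.9% of all genes were called lower, and 32.1%, 15.2% and 2.87% higher. With any 1 more library left out, KO 1 and KO 3 included, the members' median was -2.80 to -2.33. Without KO 3 or without KO 1 the KO group is a single library, assumed to vary like the WT group: 0 members and 0% of all genes were called without KO 3, and 34 members, against 9.4% of genes lower and 1.9% higher, without KO 1. Total-count scaling moved the median of all genes to -0.17 over all 6 libraries and -0.29 without the library labelled KO 2, where it called 6014 genes lower and 2526 higher against 4608 and 3986 with TMM, and all 49 members stayed below 0. The titles share replicate numbers. Same-numbered deviations from the group means correlated at 0.602, 0.642 and -0.249, and differently numbered ones at -0.685 to 0.594. With 3 libraries per group these values cannot decide whether the numbers pair the samples. With the number as a replicate block, 0 members were called over all 6 libraries (median -1.79) and 42 without the library labelled KO 2 (median -2.40), where the block called 12.8% of all genes lower and 6.79% higher. The ratio of Orc1 to Orc2 changed sign without WT 2 (0.0618) and without KO 3 (0.0803), with a range of -0.31 to 0.0803 over libraries left out. The same range was -3.28 to -0.90 for the E2F ratio, -1.69 to -0.90 for Cdt1 over Gmnn, -0.46 to -0.18 for Rfc2 to Rfc5 over Rfc1 and 0.04 to 0.37 for Ccne2 over Ccne1. The cause of these shifts was not tested. Members with few reads, 2 of which had under 10 counts in some library, have fold changes of low precision there.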
